A study of Mus musculus with 18 samples.

Results

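The Notch pathway genes Jag1, Dll1, Dll4, Notch1, Notch2, Rbpj, Hes1 and Hey1 were followed across peritoneal macrophages of 6 genotype and treatment groups. These 8 genes were chosen by symbol from the 55573 genes of the count table, and all 8 were found. The choice was made with earlier results of these counts known, so the values below describe the genes and give no independent support for a pattern. Of the 8, 6 passed the filter on low counts and were tested among 13443 genes, whereas Dll4 and Hey1 were too low to test.

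Notch signalling passes between touching cells: a ligand of the Jagged or Delta-like family on a cell binds a Notch receptor on its neighbour, ADAM proteases and then gamma-secretase cut the receptor, and the released intracellular domain moves to the nucleus. There it joins the DNA-binding factor RBPJ and a Mastermind coactivator and raises transcription of the Hes and Hey repressors. In macrophages, Notch signalling is known to interact with the response to Toll-like receptor ligands, such as the bacterial lipopolysaccharide (LPS) used here to provoke inflammation.

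The libraries were made from macrophages of the peritoneal lavage of C57BL/6 mice, sorted by flow cytometry on CD11b and F4/80, with the cells of 2 to 3 mice pooled in each library. Zeb1WT mice were Zeb1f/f, with floxed Zeb1 alleles and no Cre, and Zeb1∆M mice were Zeb1f/f LysM Cre, in which Cre expressed from the Lyz2 gene removes Zeb1 in myeloid cells. Mice of each genotype received a single dose of LPS (LPS), a second dose 24 h after the first (LPS + LPS), or metformin before a single dose of LPS (Metformin + LPS), with 3 libraries in each of the 6 groups. No untreated group was analysed here, so every treatment value is relative to LPS. Age, sex and doses were not given in the sources used here.

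Total counts ran from 14053706 to 30570439 per library. Levels are CPM, normalised read counts relative to the library total, scaled by TMM, which assumes that most genes do not differ; the TMM factors ran from 1.42 to 1.56 in LPS + LPS and from 0.445 to 0.708 in Zeb1WT Metformin + LPS, where the 10 most abundant genes took 21.8% to 28.3% of the counts. Scaling by library totals alone shifted the median log2 fold change of all genes by 0.65 in Zeb1WT and 0.59 in Zeb1∆M for LPS + LPS against LPS, by -0.71 and -0.23 for Metformin + LPS against LPS, and by 0.57 for Zeb1∆M against Zeb1WT in Metformin + LPS. The Metformin + LPS libraries also carry another prefix in their library codes than the rest, so metformin and library series cannot be told apart. Zeb1 read 6.41, 6.69 and 7.21 CPM in Zeb1WT LPS against 2.30, 3.01 and 1.38 in Zeb1∆M LPS, 0.912, 2.52 and 1.07 against 0.738, 0.926 and 0.758 in LPS + LPS, and 12.6, 12.9 and 12.3 against 4.21, 4.79 and 3.92 in Metformin + LPS. Every Zeb1∆M library was below every Zeb1WT library in LPS and in Metformin + LPS, whereas in LPS + LPS the ranges overlapped. The macrophage markers Adgre1, which encodes F4/80, and Itgam, which encodes CD11b, were high in every group, with group means of 1769 to 3718 and 682 to 2109 CPM. Summed markers of some other cells differed between genotypes. The 10 B cell markers held 451 to 705 CPM in Zeb1WT LPS against 113 to 171 in Zeb1∆M LPS. The 10 neutrophil markers held 258 to 568 CPM in Zeb1WT LPS against 36.4 to 118 in Zeb1∆M LPS, and 50.7 to 135 against 6.43 to 10.95 CPM in Metformin + LPS. In LPS + LPS the genotypes overlapped, at 131 to 190 against 127 to 253 CPM for B cells and 629 to 3496 against 426 to 1085 for neutrophils. In LPS, dendritic cell sums (317 to 662 against 268 to 1019 CPM) and eosinophil sums (100 to 215 against 22.4 to 252 CPM) also overlapped.

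Most of the member calls lay between treatments rather than between genotypes, as did most calls among all tested genes. A gene was called where the Benjamini-Hochberg adjusted p of edgeR's quasi-likelihood test was under 0.05. In LPS + LPS against LPS, 0 of 6 members were called higher and 1 lower in Zeb1WT, where 18.6% and 18% of all tested genes were called, and 0 higher and 3 lower in Zeb1∆M, where 15.8% and 16.9% of all tested genes were called. In Metformin + LPS against LPS, 3 of 6 members were called higher and 1 lower in Zeb1WT (all genes 13% and 12.3%), and 2 higher and 1 lower in Zeb1∆M (all genes 12.6% and 13.6%). Between genotypes, 1 of 6 members was higher and 0 lower in Zeb1∆M under each treatment: Jag1 in LPS (all genes 0.208% higher and 0.937% lower), Dll1 in LPS + LPS (0.461% and 0.216%) and Hes1 in Metformin + LPS (1.26% and 4.61%). Each of these 3 genotype calls depended on single libraries, as given below for each gene. With 6 genes, these shares are counts and not tested against the background.

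**Figure D1:**
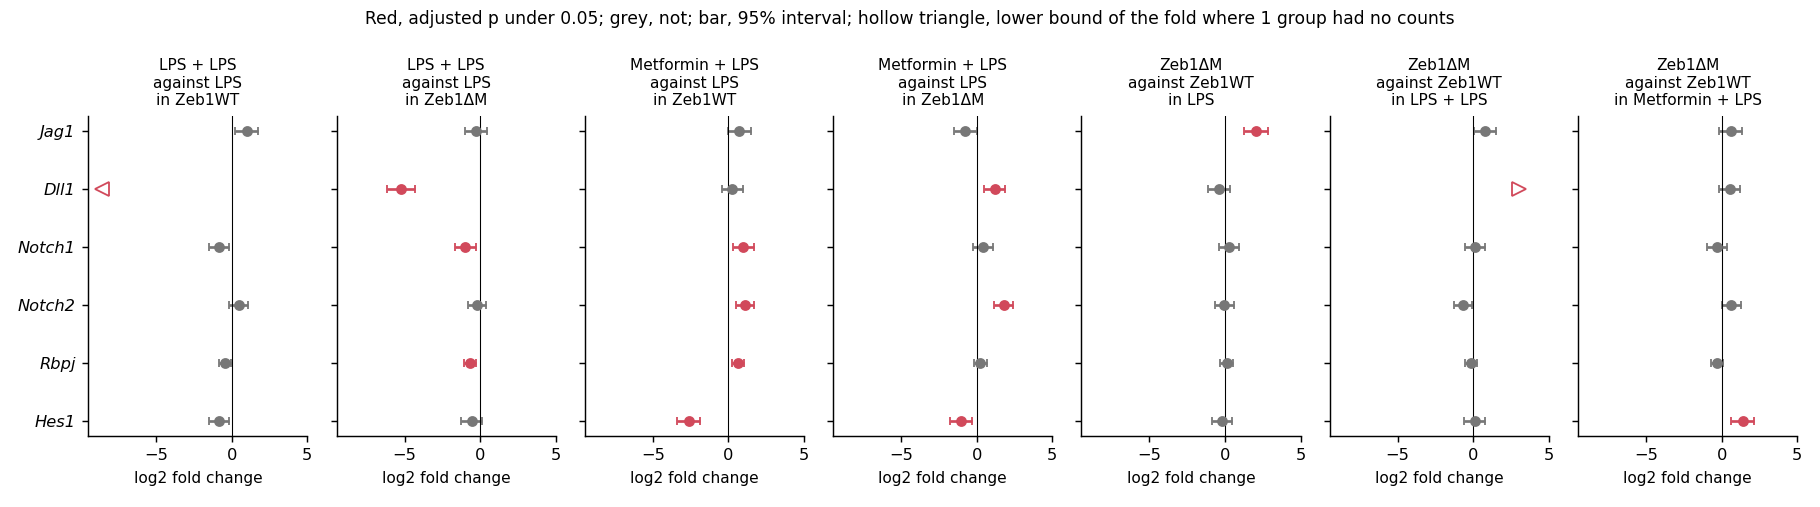
Log2 fold change of the 6 tested members (rows) in 7 comparisons (panels, named above each), with bars of 95% confidence intervals. Red points were called, grey points were not, and hollow triangles mark the lower bound of a fold where the Zeb1WT LPS + LPS group held no Dll1 counts; Dll1 lies far to the left in both LPS + LPS comparisons, and Hes1 lies to the left in both Metformin + LPS comparisons.

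Of the ligands, Jag1 separated the genotypes after a single dose of LPS. Jag1, which encodes the transmembrane ligand Jagged1 (ENSMUSG00000027276.7, GRCm38 chr2:137081456-137116644, minus strand, with no overlapping gene in GENCODE M21), read 3.23, 2.53 and 7.39 CPM in Zeb1WT LPS and 23.2, 15.4 and 15.9 CPM in Zeb1∆M LPS. All 3 Zeb1∆M libraries were above all 3 Zeb1WT libraries, although Zeb1WT replicate 3 stood well above the other two. The difference was 2.06 on the log2 scale (SE 0.40, n = 3 and 3, adjusted p = 0.013 by edgeR). The call was lost without Zeb1WT LPS replicate 1 (log2 difference 1.88, adjusted p = 0.077), Zeb1WT LPS replicate 2 (1.77, adjusted p = 0.070) or Zeb1∆M LPS replicate 1 (1.85, adjusted p = 0.074), with the size little moved each time.

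In LPS + LPS, Jag1 read 10.8, 4.39 and 10.8 CPM in Zeb1WT and 18.7, 12.7 and 13.4 CPM in Zeb1∆M. The genotypes again did not overlap, but the difference of 0.79 (SE 0.38, adjusted p = 0.43 by edgeR) did not pass. In Metformin + LPS, Jag1 read 9.13, 6.47 and 6.04 CPM in Zeb1WT and 12.7, 12.01 and 7.70 CPM in Zeb1∆M, which overlapped, with a difference of 0.59 (SE 0.39, adjusted p = 0.43 by edgeR). With library totals alone this difference was 1.15 and passed (adjusted p = 0.039). In the order of group means, Zeb1∆M LPS was the highest at 18.2 ± 4.36 CPM (SD, n = 3), followed by the other Zeb1∆M groups, and Zeb1WT LPS was the lowest at 4.39 ± 2.63 CPM, but each group overlapped the next in that order.

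The treatment differences of Jag1 did not pass. In Zeb1WT, LPS + LPS was above LPS by 0.99 (SE 0.39, adjusted p = 0.054 by edgeR), which passed without Zeb1WT LPS replicate 3 (log2 difference 1.58, adjusted p = 0.0050), without Zeb1WT LPS + LPS replicate 2 (1.30, adjusted p = 0.013), by DESeq2 (adjusted p = 0.040) and under 3 other settings. In Zeb1∆M the same comparison gave -0.28 (SE 0.38, adjusted p = 0.61 by edgeR), and 0.32 with library totals alone, so its sign depended on the scaling. Metformin + LPS against LPS gave 0.72 in Zeb1WT (SE 0.39, adjusted p = 0.19 by edgeR; 0.028 without Zeb1WT LPS replicate 3) and -0.75 in Zeb1∆M (SE 0.38, adjusted p = 0.16 by edgeR), where the 3 libraries of each treatment did not overlap. The difference between the genotypes in these responses was -1.27 (SE 0.54, adjusted p = 0.66 by edgeR) for LPS + LPS and -1.47 (SE 0.55, adjusted p = 0.26 by edgeR) for Metformin + LPS.

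Gata6, the transcription factor of large peritoneal macrophages, was set beside Jag1 after its values were seen. It read 3.85, 2.38 and 10.97 CPM in Zeb1WT LPS against 29.0, 25.1 and 30.3 CPM in Zeb1∆M LPS, with Zeb1WT replicate 3 again the highest of its group. In LPS + LPS it read 8.75, 0.802 and 2.82 CPM against 27.1, 11.7 and 10.4 CPM, whereas in Metformin + LPS it lay between 2.50 and 5.61 CPM in all 6 libraries. The Gata6 difference between genotypes was 2.30 in LPS (SE 0.64, adjusted p = 0.094 by edgeR; 0.010 by DESeq2; 0.030 without Zeb1WT LPS replicate 3) and 1.99 in LPS + LPS (SE 0.63, adjusted p = 0.17 by edgeR; 0.043 by DESeq2; 0.014 without Zeb1WT LPS + LPS replicate 1). Gata6 is 1 of the 12 peritoneal macrophage markers, of which 0 were called higher and 0 lower in Zeb1∆M LPS, with a median log2 difference of 0.03. Timd4, another of the 12, went the other way in LPS (-0.25, SE 0.24, adjusted p = 0.70 by edgeR). In LPS + LPS, 4 of the 12 were called higher and 0 lower, beside 0.461% and 0.216% of all genes, with a median of 0.74. The part of Gata6 in the Jag1 difference was not tested. In bulk libraries, fewer cells of a type and less RNA per cell cannot be told apart.

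**Figure D2:**
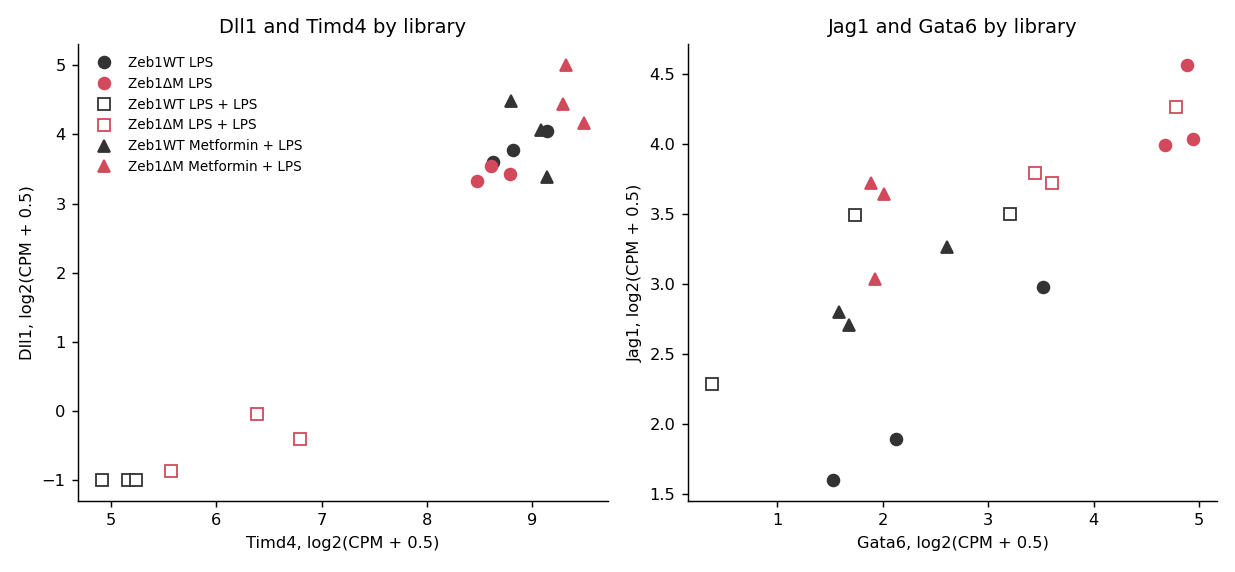
Left, Dll1 against Timd4; right, Jag1 against Gata6; each point is a library and both axes are log2(CPM + 0.5), with grey to black for Zeb1WT, red for Zeb1∆M, circles for LPS, hollow squares for LPS + LPS and triangles for Metformin + LPS. The 6 LPS + LPS libraries lie apart from the rest at low Dll1 and low Timd4, whereas Jag1 and Gata6 are both high in the 3 Zeb1∆M LPS libraries.

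Dll1 was lower after a second dose of LPS in both genotypes, to 0 counts in Zeb1WT. Dll1 encodes the ligand Delta-like 1 (ENSMUSG00000014773.13, chr17:15367354-15376872, minus strand). It read 11.6, 16.1 and 13.2 CPM in Zeb1WT LPS, with no counts in any Zeb1WT LPS + LPS library. Against a floor of 3 counts over the group, it was at least 387-fold lower (adjusted p = 1.8e-08 by edgeR). In Zeb1∆M it read 9.51, 10.3 and 11.2 CPM in LPS and 0.470, 0.253 and 0.0473 CPM in LPS + LPS, the last being 14, 6 and 1 counts. That difference was -5.22 (SE 0.47, adjusted p = 5.1e-07 by edgeR). The LPS and LPS + LPS libraries were far apart in each genotype, and both calls held under each alternative and without each library in turn. A930024N18Rik, a long non-coding RNA on the opposite strand that overlaps Dll1, reached a group mean of at most 1.20 CPM.

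The few Dll1 counts of Zeb1∆M LPS + LPS set it above Zeb1WT LPS + LPS, at least 8.01-fold (adjusted p = 0.031 by edgeR). The call rests on the 14 and 6 counts of 2 libraries: it was lost without Zeb1∆M LPS + LPS replicate 1 (adjusted p = 0.13), Zeb1∆M LPS + LPS replicate 2 (0.098), Zeb1WT LPS + LPS replicate 2 (0.086) or Zeb1WT LPS + LPS replicate 3 (0.085). With only these groups in the fit, Dll1 did not pass the count filter and was not tested. In LPS, every Zeb1∆M library was below every Zeb1WT library, but the difference of -0.40 (SE 0.36, adjusted p = 0.69 by edgeR) did not pass. The difference between genotypes in the response to the second dose had an adjusted p of 0.080 by edgeR, 0.0046 by DESeq2, 2.9e-06 without the count filter, and 0.052 to 0.23 without each library in turn. For that difference, edgeR called 0 of 6 members and 0 of 13443 genes (0% higher and 0% lower), with 939 genes at an unadjusted p under 0.05, whereas DESeq2 called 72 genes, with 1096 unadjusted.

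In Metformin + LPS, Dll1 read 9.99, 21.9 and 16.3 CPM in Zeb1WT and 31.7, 21.3 and 17.4 CPM in Zeb1∆M. All 3 Zeb1∆M libraries were above the Zeb1∆M LPS libraries, and the difference of 1.18 (SE 0.36, adjusted p = 0.025 by edgeR) passed. It did not pass with library totals alone (0.95, adjusted p = 0.099), without Zeb1∆M Metformin + LPS replicate 1 (0.92, adjusted p = 0.12), or without Zeb1∆M LPS replicate 1, 2 or 3 (adjusted p = 0.075, 0.061 and 0.056). In Zeb1WT the same comparison gave 0.24 (SE 0.36, adjusted p = 0.67 by edgeR) and -0.42 with library totals alone, and the difference between the genotypes was 0.94 (SE 0.51, adjusted p = 0.44 by edgeR).

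Timd4, a phagocytic receptor of resident peritoneal macrophages, had the pattern most like Dll1. It read 396, 563 and 451 CPM in Zeb1WT LPS, 35.4, 29.8 and 37.3 CPM in Zeb1WT LPS + LPS, 355, 442 and 389 CPM in Zeb1∆M LPS, and 83.2, 110.8 and 47.0 CPM in Zeb1∆M LPS + LPS. It fell by 3.78 on the log2 scale in Zeb1WT (SE 0.26, adjusted p = 7.4e-09 by edgeR) and by 2.30 in Zeb1∆M (SE 0.25, adjusted p = 1.4e-06 by edgeR), and Zeb1∆M LPS + LPS was above Zeb1WT LPS + LPS by 1.23 (SE 0.24, adjusted p = 0.021 by edgeR). That last call was lost with only these groups in the fit (adjusted p = 0.23), without Zeb1WT LPS + LPS replicate 2 (0.091), and without Zeb1∆M LPS + LPS replicate 1 (0.058) or 2 (0.16). The 12 peritoneal macrophage markers summed to 17216 to 27022 CPM in the LPS + LPS libraries against 45355 to 81136 CPM in LPS, with 7 of 12 called lower in each genotype and 2 called higher in Zeb1∆M. Lyz2, the gene from which Cre is expressed, made up much of these sums. Its group means were 15510 CPM in LPS + LPS against 44800 in LPS in Zeb1WT, and 8674 against 30351 CPM in Zeb1∆M. The 10 neutrophil markers rose in 5 of 10 genes in Zeb1WT and 6 of 10 in Zeb1∆M. The 7 dendritic cell markers summed to 3.83 to 11.3 CPM in Zeb1WT LPS + LPS against 317 to 662 in Zeb1WT LPS, with 3 of 5 tested called lower, and to 3.05 to 4.73 against 268 to 1019 CPM in Zeb1∆M, with 1 of 5 called lower. The median log2 fold change of the 5 tested was -1.86 in Zeb1WT and -0.64 in Zeb1∆M, so the sums do not describe each marker. B cell markers were lower in 8 of 10 genes in Zeb1WT and 1 of 10 in Zeb1∆M. Among all tested genes, 18.6% were called higher and 18% lower in Zeb1WT, and 15.8% and 16.9% in Zeb1∆M. The 1 of 5 dendritic cell and 1 of 10 B cell markers lower in Zeb1∆M are near that share, so they are no result about those cells. The part of these cell types in the Dll1 difference was not tested.

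Promoter letters are shown for Jag1 and Dll1, the ligands that could be tested, in the 250 bases before a RefSeq start site (GRCm38.p6), without the bases that lie in annotated exons of the gene. For Jag1 this leaves chr2:137116645-137116770 on the minus strand, upstream of the annotated gene. For Dll1 it is the window of the upstream start site, chr17:15376933-15377182 on the minus strand, which lies outside Dll1 and inside an exon of A930024N18Rik on the opposite strand. Capitals mark motif matches, in Dll1 the E-box that ZEB1 is known to bind (CACCTG, here on the other strand) and a match to an AP-1 pattern. That pattern, TGANTCA, allows any base in the middle, which here is T.
Jag1: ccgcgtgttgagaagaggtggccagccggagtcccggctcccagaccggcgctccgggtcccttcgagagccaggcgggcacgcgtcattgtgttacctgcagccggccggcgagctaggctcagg
Dll1: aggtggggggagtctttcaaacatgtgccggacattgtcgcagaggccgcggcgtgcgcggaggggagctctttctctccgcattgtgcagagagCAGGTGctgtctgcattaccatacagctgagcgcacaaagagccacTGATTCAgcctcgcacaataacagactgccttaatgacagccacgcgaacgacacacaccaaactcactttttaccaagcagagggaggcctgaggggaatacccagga

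In Dll1 the ZEB1 E-box began 155 bases and the AP-1 match 109 bases before this start site. On both strands, CACCTG was found in 17.2% of 32851 promoter windows of the same length, TGANTCA in 6.75%, the RBPJ core TGGGAA in 21.6% and the NF-kB consensus in 7.25%. The whole Jag1 window held none of the 4. Across the 8 windows found for 6 of the members, TGGGAA occurred only in those of Rbpj itself, CACCTG occurred also in an Rbpj window, 212 bases before its start site, and an NF-kB match occurred in Dll4, Notch2 and the other Dll1 window. A match describes letters only, and binding was not measured here.

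Dll4, which encodes the ligand Delta-like 4 (ENSMUSG00000027314.6, chr2:119325784-119335962, plus strand), had 64 counts in 8 libraries and was not tested. In Zeb1WT the counts were 0, 17 and 7 in LPS, 4, 0 and 14 in LPS + LPS, and 0, 15 and 0 in Metformin + LPS. In Zeb1∆M they were 2, 1 and 4 in LPS, and none in the libraries of the other two treatments. Replicates of a group ranged from none to 17 counts, so no order of the groups could be read at this depth. The other ligand genes of the wider list were lower still, with 34 counts of Jag2 and 1 of Dll3 over all 18 libraries.

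**Figure D3:**
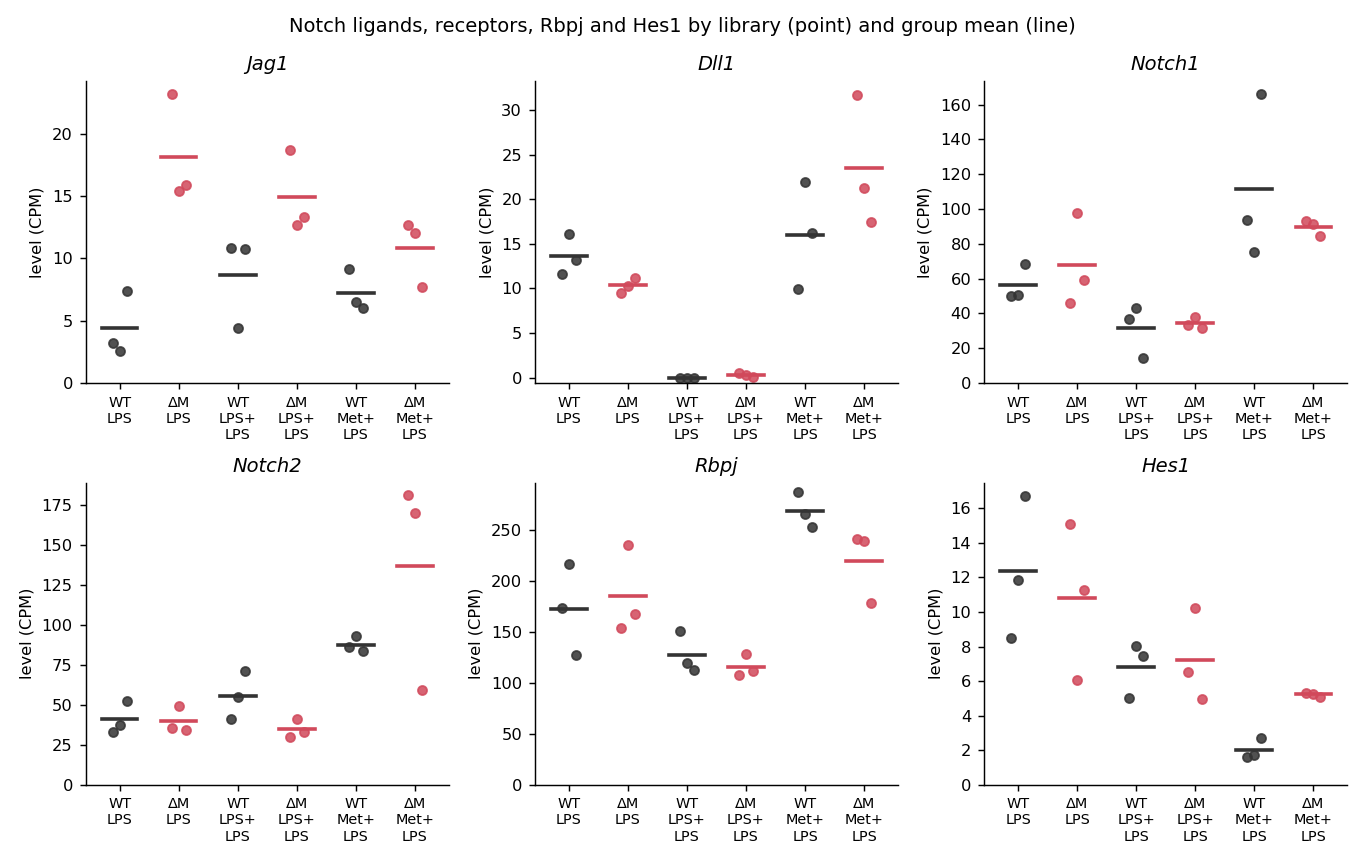
CPM of the 6 tested members (1 panel each, own linear axis) by group; each point is a library and each line the mean of 3 libraries, with grey to black for Zeb1WT and red for Zeb1∆M. Dll1 is at or near 0 in the 6 LPS + LPS libraries, Hes1 is lowest in Zeb1WT Metformin + LPS, and Notch2 in Zeb1∆M Metformin + LPS is split between 2 libraries near 170 to 181 CPM and replicate 3 at 59.1 CPM.

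Notch1 and Notch2 had their highest group means in Metformin + LPS. Notch1 encodes a receptor best known from lymphocytes (ENSMUSG00000026923.15, chr2:26457903-26516663, minus strand), and read 50.2, 50.7 and 68.5 CPM in Zeb1WT LPS, 45.8, 97.9 and 59.3 CPM in Zeb1∆M LPS, 37.0, 43.1 and 14.3 CPM in Zeb1WT LPS + LPS, and 33.4, 37.6 and 31.7 CPM in Zeb1∆M LPS + LPS. Every LPS + LPS library was below every LPS library of its genotype. The difference was -0.84 in Zeb1WT (SE 0.35, adjusted p = 0.065 by edgeR) and -0.98 in Zeb1∆M (SE 0.35, adjusted p = 0.037 by edgeR). In Zeb1WT it passed without Zeb1WT LPS + LPS replicate 2 (-1.14, adjusted p = 0.030). In Zeb1∆M it was lost with library totals alone (-0.41, adjusted p = 0.35), without Zeb1∆M LPS replicate 2 (-0.62, adjusted p = 0.22) or 3 (0.066), and without Zeb1∆M LPS + LPS replicate 1 (0.098), 2 (0.068) or 3 (0.11). Genes that overlap Notch1 on the opposite strand, 0610009E02Rik and Gm13568, had group means of at most 2.76 CPM.

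In Metformin + LPS, Notch1 read 93.7, 75.1 and 165.9 CPM in Zeb1WT and 93.3, 91.4 and 84.2 CPM in Zeb1∆M. The Zeb1WT libraries were above those of Zeb1WT LPS, by 0.98 (SE 0.35, adjusted p = 0.045 by edgeR). This call was lost with library totals alone (0.18, adjusted p = 0.70), without Zeb1WT Metformin + LPS replicate 3 (0.60, adjusted p = 0.25) or 1 (0.054), and without Zeb1WT LPS replicate 1 (0.13), 2 (0.11) or 3 (0.056). In Zeb1∆M the difference was 0.40 (SE 0.34, adjusted p = 0.41 by edgeR), with ranges that overlapped. Between genotypes, Notch1 differed by 0.26 in LPS, 0.12 in LPS + LPS and -0.32 in Metformin + LPS (0.35 with library totals alone), with adjusted p-values of 0.80, 0.95 and 0.66 by edgeR.

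Notch2 rose with metformin in both genotypes. Notch2 encodes a receptor with known roles in myeloid and B cell subsets (ENSMUSG00000027878.11, chr3:98013527-98150361, plus strand), and read 33.1, 37.0 and 52.2 CPM in Zeb1WT LPS against 86.1, 92.7 and 83.4 CPM in Zeb1WT Metformin + LPS. In Zeb1∆M it read 35.2, 49.4 and 34.3 CPM in LPS against 181, 170 and 59.1 CPM in Metformin + LPS. The treatments did not overlap in either genotype, and Zeb1∆M Metformin + LPS replicate 3 lay far below the other two. The difference was 1.10 in Zeb1WT (SE 0.32, adjusted p = 0.016 by edgeR) and 1.78 in Zeb1∆M (SE 0.32, adjusted p = 8.2e-04 by edgeR). The Zeb1∆M call held under each alternative and without each library in turn, and with library totals alone was 1.54 (adjusted p = 0.0037). The Zeb1WT call was lost with library totals alone (0.40, adjusted p = 0.35) and without Zeb1WT LPS replicate 1 (0.96, adjusted p = 0.076) or 2 (1.06, adjusted p = 0.054).

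Between genotypes in Metformin + LPS, Notch2 differed by 0.64 (SE 0.31, adjusted p = 0.25 by edgeR), and by 0.99 without Zeb1∆M Metformin + LPS replicate 3 (adjusted p = 0.027) and 1.20 with library totals alone (adjusted p = 0.018). In LPS + LPS it read 41.2, 54.7 and 71.2 CPM in Zeb1WT and 29.8, 41.1 and 32.8 CPM in Zeb1∆M. The genotypes touched without overlapping, and the difference of -0.69 (SE 0.31, adjusted p = 0.39 by edgeR) did not pass. LPS + LPS against LPS gave 0.45 in Zeb1WT (SE 0.31, adjusted p = 0.28 by edgeR; 1.10 and 0.012 with library totals alone) and -0.20 in Zeb1∆M (SE 0.31, adjusted p = 0.67 by edgeR; 0.38 with library totals alone). Of the other receptors, Notch3 had 3 counts over all libraries. Notch4, singled out after its values were seen, was counted in LPS + LPS libraries alone, with 6, 19 and 3 counts in Zeb1WT and 41, 19 and 12 in Zeb1∆M, which was at least 6.39-fold (adjusted p = 0.019 by edgeR) and at least 16.9-fold (adjusted p = 0.0075 by edgeR) above LPS.

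Rbpj, the DNA-binding factor of the pathway, was the member with the highest level per length. Rbpj (ENSMUSG00000039191.12, chr5:53466152-53657362, plus strand) had group means of 9.06 to 21.04 CPM per kb of exon, against 2.21 to 7.84 for Notch1, 3.21 to 12.7 for Notch2, 0.988 to 6.07 for Hes1, 0.753 to 3.12 for Jag1 and 0 to 5.56 for Dll1. It read 173.6, 216.7 and 127.3 CPM in Zeb1WT LPS, 150.1, 119.4 and 112.7 CPM in Zeb1WT LPS + LPS, and 287.0, 265.7 and 252.1 CPM in Zeb1WT Metformin + LPS. In Zeb1∆M it read 153.2, 234.5 and 167.6 CPM in LPS, 107.2, 128.0 and 111.5 CPM in LPS + LPS, and 240.4, 238.4 and 178.1 CPM in Metformin + LPS. All Zeb1WT Metformin + LPS libraries were above all others of Rbpj, and all Zeb1∆M LPS + LPS libraries were below those of Zeb1∆M LPS.

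In LPS + LPS against LPS, Rbpj was lower by 0.68 in Zeb1∆M (log2 difference -0.68, SE 0.21, adjusted p = 0.018 by edgeR), but with library totals alone the difference was -0.10 (adjusted p = 0.76). It was also lost without Zeb1∆M LPS replicate 2 (-0.47, adjusted p = 0.12) and without Zeb1∆M LPS + LPS replicate 1 (0.074) or 3 (0.064). In Zeb1WT it was -0.44 (SE 0.21, adjusted p = 0.11 by edgeR; 0.035 without Zeb1WT LPS replicate 3), and 0.22 with library totals alone. In Metformin + LPS against LPS, it was 0.64 in Zeb1WT (SE 0.21, adjusted p = 0.033 by edgeR), and -0.059 with library totals alone, so that this direction holds only relative to the median gene. The call was also lost with only these groups in the fit (adjusted p = 0.058), without Zeb1WT LPS replicate 1 (0.085) or 3 (0.16), and without Zeb1WT Metformin + LPS replicate 1 (0.079). In Zeb1∆M it was 0.24 (SE 0.21, adjusted p = 0.42 by edgeR), and -4.2e-04 with library totals alone. Between genotypes Rbpj differed by 0.10 in LPS, -0.14 in LPS + LPS and -0.29 in Metformin + LPS (0.28 with library totals alone), with adjusted p-values of 0.88, 0.87 and 0.47 by edgeR.

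Hes1, the target among the members that could be tested, fell with metformin in both genotypes. Hes1 encodes a transcriptional repressor that Notch signalling is known to induce (ENSMUSG00000022528.8, chr16:30064384-30067796, plus strand, with no overlapping gene). It read 8.52, 11.9 and 16.7 CPM in Zeb1WT LPS and 1.62, 1.71 and 2.71 CPM in Zeb1WT Metformin + LPS. The groups were far apart, and the difference of -2.62 (SE 0.39, adjusted p = 1.4e-04 by edgeR) held under each alternative and without each library in turn, with -3.36 for library totals alone.

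In Zeb1∆M, Hes1 read 15.1, 6.07 and 11.3 CPM in LPS and 5.32, 5.27 and 5.10 CPM in Metformin + LPS. The treatments did not overlap, but the lowest LPS library was close to the Metformin + LPS libraries. The difference was -1.04 (SE 0.36, adjusted p = 0.038 by edgeR), and was -1.25 with library totals alone (adjusted p = 0.016). It was lost without Zeb1∆M LPS replicate 1 (-0.73, adjusted p = 0.18) or 3 (0.10), and without Zeb1∆M Metformin + LPS replicate 1 (0.10), 2 (0.10) or 3 (0.093). Between genotypes in Metformin + LPS, all 3 Zeb1∆M libraries were above all 3 Zeb1WT libraries, by 1.38 (SE 0.38, adjusted p = 0.039 by edgeR), and by 1.99 with library totals alone (adjusted p = 0.0036). This call was lost with only these groups in the fit (adjusted p = 0.064), without Zeb1WT Metformin + LPS replicate 1 (0.14), 2 (0.11) or 3 (0.0501), and without Zeb1∆M Metformin + LPS replicate 1 (0.11), 2 (0.10) or 3 (0.068). The difference between genotypes in the response to metformin was 1.58 (SE 0.51, adjusted p = 0.21 by edgeR). Markers of some other cells moved with the genotype in the same libraries. In Zeb1∆M against Zeb1WT Metformin + LPS, neutrophil markers summed to 6.43 to 10.95 against 50.7 to 135 CPM, and B cell markers to 28.5 to 39.6 against 107 to 188. Eosinophil markers summed to 4.06 to 6.28 against 50.4 to 78.6, and monocyte and small peritoneal macrophage markers to 2501 to 4649 against 6243 to 23684. Dendritic cell markers went the other way, at 106 to 595 against 80.4 to 91.4 CPM, with 0 of 5 tested called. The part of other cells in the Hes1 difference between genotypes was not tested.

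After the second dose, Hes1 read 4.996, 8.02 and 7.46 CPM in Zeb1WT and 6.54, 10.2 and 4.97 CPM in Zeb1∆M. The Zeb1WT libraries were below those of Zeb1WT LPS, with a difference of -0.85 (SE 0.35, adjusted p = 0.064 by edgeR; 0.038 without Zeb1WT LPS replicate 1). In Zeb1∆M the ranges overlapped, with a difference of -0.57 (SE 0.35, adjusted p = 0.23 by edgeR; 0.038 on the log2 scale with library totals alone). Hey1, another repressor induced by Notch (ENSMUSG00000040289.8, chr3:8663359-8667256, minus strand), had 3 counts, all in Zeb1WT Metformin + LPS replicate 3, and was not tested. Of the other canonical targets, Hes5 had 14 counts over all libraries, Nrarp 16, Hey2 9, Heyl 3 and Hes7 1, so no change in them was detectable at this depth.

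In the response to metformin, edgeR called 11 genes (0.0818%) higher and 10 (0.0744%) lower for the difference between genotypes, and 0 of 6 members were among them. Markers of some other cells moved with metformin as well. Summed monocyte and small peritoneal macrophage markers were 10099, 6243 and 23684 CPM in Zeb1WT Metformin + LPS against 5543 to 6511 in Zeb1WT LPS. Of these 8 markers, 4 were called higher in Zeb1WT, beside 13% of all tested genes. In Zeb1∆M the sums overlapped, at 2501 to 4649 against 2803 to 4782 CPM. There 2 of 8 were called higher and 1 lower, near the 12.6% and 13.6% of all tested genes. Neutrophil markers were lower in 7 of 10 genes in Zeb1WT and 8 of 10 in Zeb1∆M, and B cell markers in 6 of 10 in each. Of all tested genes, 12.3% were lower in Zeb1WT and 13.6% in Zeb1∆M. The part of other cells in the Notch2 and Hes1 differences was not tested.

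The wider pathway was described by 62 other genes, of which 45 were tested. In LPS + LPS against LPS, 9 were called higher and 7 lower in each genotype, near the shares of all tested genes (18.6% and 18% in Zeb1WT, 15.8% and 16.9% in Zeb1∆M), and the median log2 fold change of the 45 was -0.04 in Zeb1WT and 0.09 in Zeb1∆M, beside 0.08 and 0.01 for all tested genes. In Metformin + LPS against LPS, 7 were higher and 6 lower in Zeb1WT (13% and 12.3% of all genes; median 0.06 against -0.03 for all genes), and 13 were higher and 6 lower in Zeb1∆M (12.6% and 13.6% of all genes; median 0.19 against -0.04). The count of 19 in Zeb1∆M was 10 without Zeb1∆M Metformin + LPS replicate 1 and 11 with library totals alone. Between genotypes, 1 was called in LPS, 0 in LPS + LPS and 1 in Metformin + LPS, and for both interactions edgeR called 0.

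By role, 2 of 12 tested genes of the nuclear complex and 2 of 13 of ligand and receptor trafficking were lower after the second dose in each genotype, near the 18% and 16.9% of all tested genes that were lower, so these counts are no result about the roles. Snw1, a coactivator that binds the Notch complex, read 125.1, 131.9 and 132.9 CPM in Zeb1WT LPS and 49.2, 49.5 and 54.0 CPM in Zeb1WT LPS + LPS, a fall by 1.35 (SE 0.14, adjusted p = 6.1e-07 by edgeR), and fell by 1.14 in Zeb1∆M (SE 0.14, adjusted p = 5.3e-06 by edgeR). Dtx3l, a Deltex-family ubiquitin ligase also known as an interferon-induced gene, fell by 2.28 in Zeb1WT (SE 0.32, adjusted p = 2.1e-05 by edgeR) and by 2.61 in Zeb1∆M (SE 0.32, adjusted p = 6.6e-06 by edgeR), from 260 to 53.7 and from 231 to 37.8 CPM on average. Bend6, a corepressor that binds RBPJ, fell by 3.12 and 2.96 (SE 0.46 and 0.47, adjusted p = 3.9e-05 and 9.6e-05 by edgeR), from averages of 5.20 and 3.72 CPM. Nedd4, a ubiquitin ligase that acts on Notch receptors, fell by 2.77 in Zeb1∆M (SE 0.46, adjusted p = 1.4e-04 by edgeR), from 20.4 ± 4.47 to 2.99 ± 2.20 CPM (SD, n = 3). In Zeb1WT its group mean also fell, from 10.3 ± 0.37 to 2.27 ± 1.25 CPM (SD, n = 3). Of the 5 tested targets, 3 were lower and 1 higher in each genotype, and Myc fell by 1.55 in Zeb1WT (SE 0.26, adjusted p = 1.3e-04 by edgeR). In Zeb1∆M the group mean of Myc also fell, from 62.5 to 38.1 CPM. Of the 10 proteases, 2 were higher in Zeb1WT and 3 in Zeb1∆M, and 0 were lower. The shares of all tested genes called higher were 18.6% in Zeb1WT and 15.8% in Zeb1∆M. With 5 targets and 10 proteases, these counts were not tested against the shares of all genes.

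With metformin, 3 of 12 tested genes of the nuclear complex were higher and 1 lower in Zeb1WT. In Zeb1∆M, 6 were higher and 0 lower. Of the 10 tested proteases, 2 were higher in Zeb1WT and 4 in Zeb1∆M, and 0 were lower. Among all tested genes, 13% were higher and 12.3% lower in Zeb1WT, and 12.6% and 13.6% in Zeb1∆M. With so few genes per role, these counts were not tested against the shares of all genes. In Zeb1WT, Spen, a corepressor of RBPJ, was higher by 1.72 (SE 0.36, adjusted p = 0.0023 by edgeR), and Kat2b, a histone acetyltransferase, by 1.42 (SE 0.30, adjusted p = 0.0024 by edgeR), with Spen at 2.69, 5.53 and 5.70 CPM in LPS and 22.0, 11.3 and 12.6 CPM in Metformin + LPS. Adam17, a protease that cleaves Notch receptors and tumour necrosis factor, was higher by 0.84 (SE 0.19, adjusted p = 0.0031 by edgeR), and with library totals alone neither it (0.092) nor Kat2b (0.68) was called. In Zeb1∆M, Maml2, a Mastermind coactivator, read 1.71, 2.09 and 1.68 CPM in LPS and 14.3, 13.2 and 7.32 CPM in Metformin + LPS, a difference of 2.66 (SE 0.41, adjusted p = 2.2e-04 by edgeR). Ep300, an acetyltransferase of the same complex, was higher by 1.48 (SE 0.30, adjusted p = 0.0019 by edgeR), and Ccnd1, a cyclin gene and reported target, by 1.86 (SE 0.35, adjusted p = 0.0011 by edgeR). Group means of Maml2, Ep300 and Ccnd1 were also higher in Zeb1WT, from 3.27 to 9.32, from 17.4 to 30.4 and from 9.37 to 13.8 CPM. Genes were named by the smallest adjusted p in a comparison, so a gene named in 1 genotype need not differ between genotypes. Zeb1∆M Metformin + LPS replicate 3, which stood apart in Notch2, was also the lowest of its group in Maml2, Ep300 and Ccnd1.

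Of the 5 tested targets outside the members, 4 were lower and 0 higher with metformin in Zeb1WT. In Zeb1∆M, 3 were lower and 1, Ccnd1, was higher. Among all tested genes, 12.3% were lower in Zeb1WT and 13.6% in Zeb1∆M, and with 5 genes the counts were not tested against these shares. The targets are a list of gene names, and Notch activity was not measured, so the counts describe these genes only. Myc, a growth regulator, read 132.3, 121.3 and 225.2 CPM in Zeb1WT LPS and 38.0, 49.7 and 34.3 CPM in Zeb1WT Metformin + LPS, a fall by 1.97 (SE 0.26, adjusted p = 6.0e-05 by edgeR). Il2ra, the interleukin 2 receptor alpha chain, fell by 1.46 in Zeb1∆M (SE 0.30, adjusted p = 0.0019 by edgeR), from 37.8, 32.5 and 33.3 to 12.3, 18.2 and 7.13 CPM. Group means also fell in the other genotype, for Myc from 62.5 to 43.2 CPM in Zeb1∆M and for Il2ra from 54.2 to 30.3 CPM in Zeb1WT. Dtx1, a Deltex gene also listed as a target and singled out after its values were seen, had 60 counts in Zeb1∆M LPS and none in Zeb1∆M Metformin + LPS, at least 22.7-fold lower (adjusted p = 0.0092 by edgeR). In Zeb1WT, Dtx1 had 38, 23 and 68 counts in LPS and 0, 1 and 6 in Metformin + LPS. Myc and Il2ra were also the only pathway genes outside the members called between genotypes: Myc was lower in Zeb1∆M LPS by 1.35 (log2 difference -1.35, SE 0.26, adjusted p = 0.012 by edgeR; 0.055, 0.067 and 0.0504 without Zeb1∆M LPS replicate 1, 2 or 3), at 67.3, 56.3 and 63.8 CPM. Il2ra was lower in Zeb1∆M Metformin + LPS (log2 difference -1.27, SE 0.30, adjusted p = 0.016 by edgeR), but not called with library totals alone (-0.67, adjusted p = 0.10), without Zeb1WT Metformin + LPS replicate 3 (0.072), or without Zeb1∆M Metformin + LPS replicate 1 (0.068) or 3 (0.054).

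**Figure D4:**
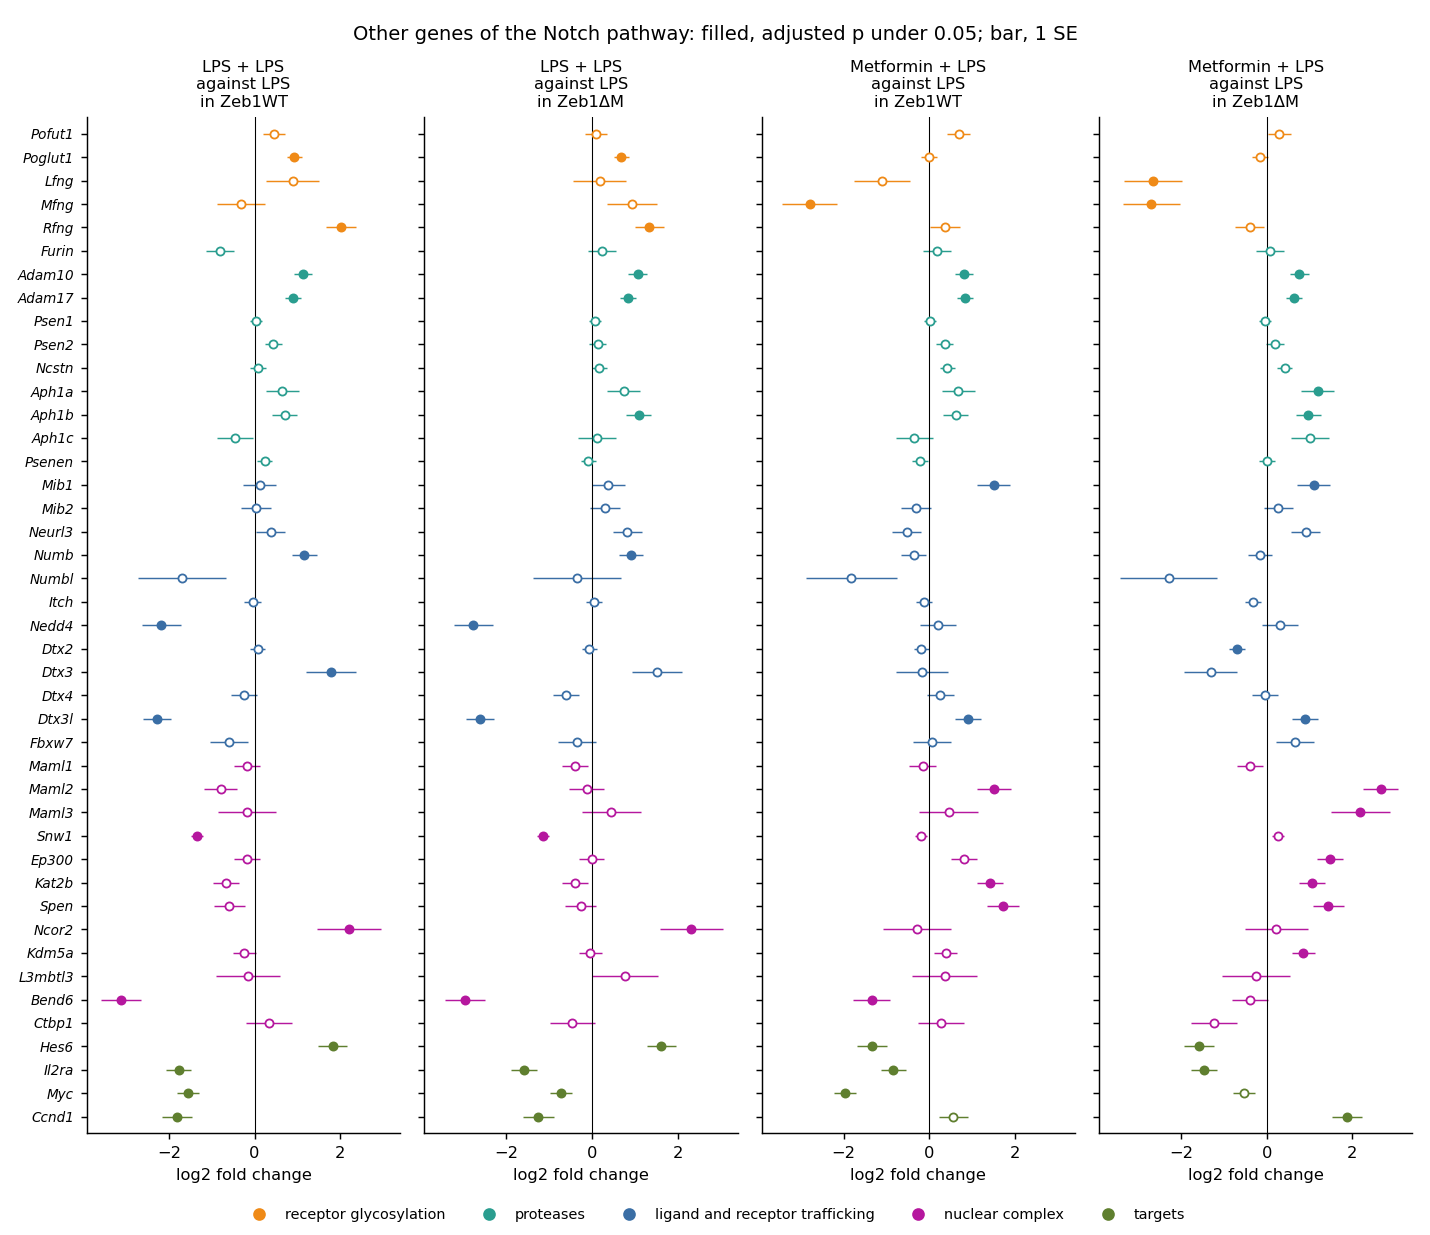
Log2 fold change (horizontal axis, bars of 1 standard error) of 43 other Notch pathway genes (rows, coloured by role) in the 4 treatment comparisons (panels); filled points were called, and Notch4 and Dtx1 are left out because a group had no counts. The 2 LPS + LPS panels show Snw1, Dtx3l and Bend6 to the left. The Zeb1∆M Metformin + LPS panel shows 6 filled points to the right among 12 of the nuclear complex, beside 12.6% of all tested genes called higher.

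The genes most like each member over the 18 libraries, by Pearson's r of log2 CPM among 6450 genes, differed between members. These libraries share groups and depth, so r is given as a description. For Dll1 they were Timd4 (r = 0.987), Traf3ip2 (0.982) and Gypc (0.982), 461 genes had r over 0.9, and the points form 2 clusters, with the LPS + LPS libraries apart from the rest. For Notch1 they were Plagl2 (0.934) and H2-Q6 (0.929), for Notch2 Enox2 (0.929), Rapgef2 (0.917) and Ahnak (0.870), and for Rbpj Mob1a (0.951) and Psd3 (0.946). For Hes1 they were Brf1 (0.893), Kat5 (0.882) and Mcrip1 (0.881), and for Jag1 Tstd2 (0.812), Tm9sf3 (0.769) and Edem1 (0.766), with 0 genes over 0.9 for either. Gata6 had r = 0.744 with Jag1.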

How the data were processed

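Sorted peritoneal macrophages were profiled by mRNA sequencing (TruSeq Stranded mRNA). The authors deposited whole-number gene counts, and their processing notes name STAR, RSEM, DESeq2 and GRCm38 without versions; whether counting used strand was not given in the sources used here. The deposited counts of 18 libraries entered 1 fit (edgeR 4.0.16, R 4.3.3, limma 3.58.1): filterByExpr, TMM factors, a quasi-likelihood test per comparison, and Benjamini-Hochberg adjustment over 13443 genes at 0.05. Per the methods, replicates were biologically independent, with mice pooled in each library; the p-values measure the spread between these pools. The study's source tables leave out Zeb1WT LPS + LPS replicate 1; it was kept here.

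The members and the gene lists were chosen with earlier results of these data known. Named genes were the members, up to 4 other pathway genes with the smallest adjusted p per comparison, and the 3 genes of highest r (prior count 2, mean log2 CPM of at least 3), of which some are not reported here. Alternatives were a replicate block, DESeq2 1.42.0, leave-one-out, median-of-ratios scaling, dropping the filter, fitting only the compared groups and, chosen after seeing the data, library totals alone. Bounds used a floor of 3 counts over a group and cover counting error only. Lengths and overlaps came from GENCODE M21, promoters from RefSeq (GRCm38.p6); 55180 gene IDs matched GENCODE. Scripts were tested on simulated data.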

Additional observations from a re-analysis of the deposited data

How the results depend on the processing

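Of 719 log2 fold changes of named genes recomputed under the alternatives, 625 kept their direction and side of the threshold, 49 lost the call, 17 gained it and 28 changed sign. The 719 include differences that were never called, so the 625 do not measure how well calls held. The member calls that held without each library in turn were Dll1 for LPS + LPS against LPS in both genotypes. With metformin they were Hes1 in Zeb1WT and Notch2 in Zeb1∆M. Every other member call was lost at least once. With 3 libraries a group, differences between genotypes were near the limit of what could be called, and Dll4, Hey1 and, after the second dose, Dll1 are limited by their few counts. Counts of called genes moved as follows, and the cause was not tested. With median-of-ratios scaling, 2 genes in all were called for the LPS + LPS interaction. By DESeq2, 2 members were called for Zeb1WT LPS + LPS against LPS, 3 pathway genes and 489 genes in all for the genotypes in LPS, 380 genes in all for the genotypes in LPS + LPS, 1336 genes in all for the genotypes in Metformin + LPS, 1 member and 72 genes in all for the LPS + LPS interaction, 1 pathway gene and 289 genes in all for the Metformin + LPS interaction. Without the count filter, 3 members were called for Zeb1WT LPS + LPS against LPS, 6 pathway genes and 738 genes in all for the genotypes in LPS, 2 pathway genes and 640 genes in all for the genotypes in LPS + LPS, 2 pathway genes and 1213 genes in all for the genotypes in Metformin + LPS, 1 member and 236 genes in all for the LPS + LPS interaction, 4 pathway genes and 601 genes in all for the Metformin + LPS interaction. With the replicate block, 2 members were called for Zeb1WT LPS + LPS against LPS, 2 pathway genes for the genotypes in LPS. With library totals alone, 3 members and 26 pathway genes were called for Zeb1WT LPS + LPS against LPS, 1 member for Zeb1∆M LPS + LPS against LPS, 1 member and 5597 genes in all for Zeb1WT Metformin + LPS against LPS, 11 pathway genes for Zeb1∆M Metformin + LPS against LPS, 3 members, 10 pathway genes and 3598 genes in all for the genotypes in Metformin + LPS, 1 pathway gene and 131 genes in all for the Metformin + LPS interaction. With only the compared groups in the fit, 0 members and 0 genes in all were called for the genotypes in LPS + LPS, 0 members, 2 pathway genes and 505 genes in all for the genotypes in Metformin + LPS, 44 genes in all for the Metformin + LPS interaction. Totals alone also changed the split of calls: 2504 higher and 2421 lower became 5337 and 1176 for Zeb1WT LPS + LPS against LPS, 2125 higher and 2272 lower became 4353 and 944 for Zeb1∆M LPS + LPS against LPS, 1744 higher and 1648 lower became 466 and 5131 for Zeb1WT Metformin + LPS against LPS, 1693 higher and 1825 lower became 930 and 2343 for Zeb1∆M Metformin + LPS against LPS, 169 higher and 620 lower became 3274 and 324 for the genotypes in Metformin + LPS and 11 higher and 10 lower became 120 and 11 for the Metformin + LPS interaction. DESeq2 called 177 higher and 203 lower for the genotypes in LPS + LPS. The replicate numbers did not pair the libraries: of 21 pairs of libraries with the same number, 1 had deviations correlated over 0.1 (range -0.089 to 0.14), so a call lost under the replicate block is no sign of a weaker difference. With the block, edgeR no longer called Notch1 for Zeb1∆M LPS + LPS against LPS (adjusted p = 0.051) or for Zeb1WT Metformin + LPS against LPS (adjusted p = 0.054), and called Jag1 for Zeb1WT LPS + LPS against LPS (adjusted p = 0.04997). With only the compared groups in the fit, Dll1 was not tested between the genotypes in LPS + LPS.

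Changes of sign under library totals alone were Rbpj at 0.22 for Zeb1WT LPS + LPS against LPS, Jag1 at 0.32, Notch2 at 0.38 and Hes1 at 0.038 for Zeb1∆M LPS + LPS against LPS, Dll1 at -0.42 and Rbpj at -0.059 for Zeb1WT Metformin + LPS against LPS, Rbpj at -4.2e-04 for Zeb1∆M Metformin + LPS against LPS, Notch2 at 0.063 for the genotypes in LPS, Notch1 at 0.35 and Rbpj at 0.28 for the genotypes in Metformin + LPS, Rbpj at 0.058 for the Metformin + LPS interaction. Leaving out each library in turn, these log2 differences crossed 0: Dll1 (-0.023 to 0.51) for Zeb1WT Metformin + LPS against LPS, Notch1 (-0.10 to 0.48), Notch2 (-0.23 to 0.18), Rbpj (-0.10 to 0.29) and Hes1 (-0.51 to 0.093) for the genotypes in LPS, Notch1 (-0.48 to 0.23) and Hes1 (-0.042 to 0.60) for the LPS + LPS interaction, Notch1 (-0.22 to 0.43), Rbpj (-0.22 to 6.3e-05) and Hes1 (-0.24 to 0.30) for the genotypes in LPS + LPS, Notch1 (-0.55 to 0.075) for the genotypes in Metformin + LPS. None of them was called in either direction. Leaving out each library in turn gave 1 to 3 members for Zeb1WT LPS + LPS against LPS, 1 to 4 members for Zeb1WT Metformin + LPS against LPS, 0 to 1 members, 0 to 2 pathway genes and 55 to 232 genes in all for the genotypes in LPS, 0 to 11 genes in all for the LPS + LPS interaction, 3 to 70 genes in all for the Metformin + LPS interaction, 1 to 3 members for Zeb1∆M LPS + LPS against LPS, 1 to 2 members, 10 to 18 pathway genes and 2268 to 3148 genes in all for Zeb1∆M Metformin + LPS against LPS, 0 to 1 members, 0 to 1 pathway genes and 29 to 397 genes in all for the genotypes in LPS + LPS, 0 to 1 members, 0 to 1 pathway genes and 321 to 965 genes in all for the genotypes in Metformin + LPS. The lowest and highest counts over all genes were 55 without Zeb1∆M LPS replicate 1 and 232 without Zeb1WT LPS replicate 3 for the genotypes in LPS, 29 without Zeb1∆M LPS + LPS replicate 2 and 397 without Zeb1WT LPS + LPS replicate 1 for the genotypes in LPS + LPS, 321 without Zeb1∆M Metformin + LPS replicate 1 and 965 without Zeb1WT Metformin + LPS replicate 2 for the genotypes in Metformin + LPS.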
